A study of Mus musculus with 2 samples.

Results

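The 10 genes described here package and release the cytotoxic granules of natural killer (NK) cells: Srgn, Nkg7, Ctsw, Ctsc, Ctsd, Lamp1, Lamp2, Rab27a, Unc13d and Stx11. They were listed by name for their known roles, with earlier results of these data known, and all 10 were found among the 53715 genes in the files. Their raw unique molecular identifier (UMI) counts were read in barcodes that held at least 1 UMI of Ncr1, the gene of the NKp46 receptor on which the cells had been sorted.

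The study compared NK cells from mouse CT26 tumours, a colon carcinoma line, that lack B2m, the light chain of MHC class I (CT26_b2m-/-). The library titled IL-15SA+IL-21Fc is called the combination library here and the other is titled IL-15SA, so by these titles IL-15SA is common to both. The series title instead names IL-21 for the single treatment, and the sample titles were followed. The CD45.2+CD3-NKp46+ cells of a treatment were pooled and loaded on a microwell chip as 1 library per group. No test could be made, and every interval below is at 95% and covers counting error only. The sources used here do not give the dose, schedule, host strain, age or number of mice per pool.

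Cytotoxic granules are lysosome-related organelles in which perforin and granzymes are held ready for release onto a target cell. Serglycin, a proteoglycan, binds the cargo in the granule core, cathepsins process it, and lysosomal membrane proteins bound the organelle. Release needs tethering and priming at the plasma membrane followed by fusion, and in human patients loss of RAB27A, UNC13D or STX11 impairs this step.

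The combination library comprised 35336180 UMIs in 12435 barcodes and the IL-15SA library 30893388 UMIs in 8386 barcodes. After doublets and a cluster with tumour or stroma markers were removed, 9774 Ncr1-positive barcodes with a median of 2431 UMIs remained in the combination library, and 6995 with a median of 3210 UMIs in the IL-15SA library. Of these barcodes 42 occurred in both libraries. The summed level of 11 tumour or stroma markers was 103 CPM in the combination library and 54.9 CPM in the IL-15SA library (CPM, UMIs of a gene per 1000000 UMIs summed over the barcodes). The 10 macrophage or monocyte markers summed to 13.4 CPM in the combination library and 12.95 CPM in the IL-15SA library, with only 1 of them, Cd14, at 1 CPM or more. The 5 dendritic cell markers summed to 1.04 CPM in the combination library and 0.453 CPM in the IL-15SA library, and the 7 T cell markers to 251 CPM in the combination library and 239 CPM in the IL-15SA library. MHC class II markers, 4 genes, summed to 179 CPM in the combination library and 88.2 CPM in the IL-15SA library. All 10 NK markers were detected in both libraries.

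As a set, the packaging and release genes lay close to equal in the libraries. The median log2 ratio of the 10 genes, combination over IL-15SA with 1 CPM added, was 0.03, against -0.02 over the 5420 genes at 20 CPM or more in a library. It was above 0 for 6 genes and below 0 for 4. The combination library was higher by at least 25% for 0 of the members, as it was for 5.90% of all genes, and lower by at least 20% for 1 member, Rab27a, as it was for 4.02% of all genes. None passed 1.5-fold, which 1.48% of all genes did upward and 0.424% downward. The cargo was lower: Prf1, which encodes perforin, was at 1436 CPM in the combination library and 1907 CPM in the IL-15SA library, and the granzyme B gene Gzmb had 5615 CPM in the combination library and 7255 CPM in the IL-15SA library.

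**Figure D1:**
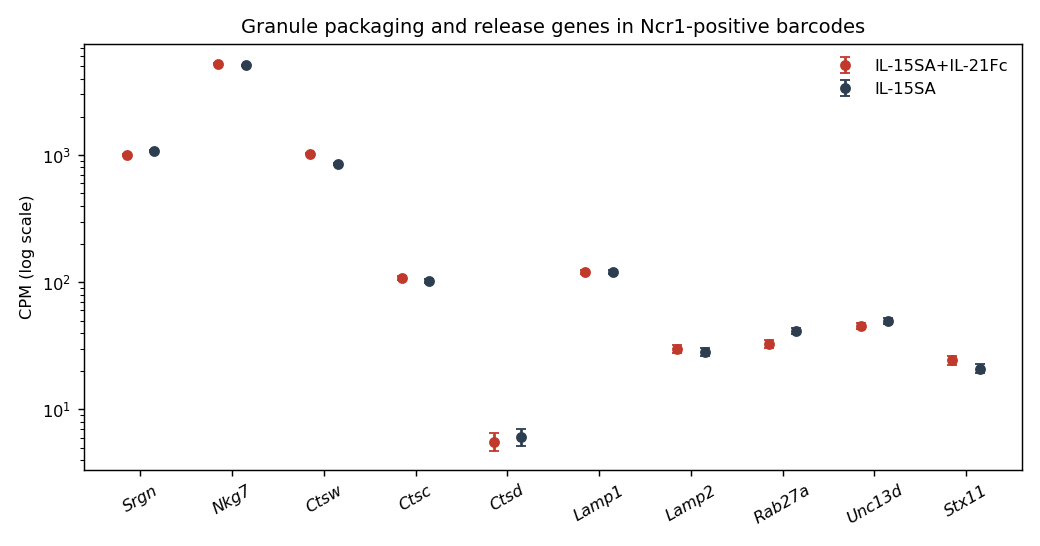
Level of each gene in Ncr1-positive barcodes, in CPM on a log scale, with exact 95% Poisson intervals, the combination library left of the IL-15SA library for each gene. The paired points lie close together, with the widest relative gap at Rab27a, at 32.8 CPM in the combination library and 41.5 CPM in the IL-15SA library.

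Srgn encodes the core protein of serglycin and lies on chromosome 10 from 62493833 to 62527451 (minus strand, build GRCm38, GENCODE M21, as for the genes below). It was slightly lower in the combination library throughout the NK states. Its level was 1001 CPM in the combination library and 1077 CPM in the IL-15SA library, a ratio of 0.929 (95% counting interval 0.914 to 0.944). The ratio was below 1 in each of the 5 clusters compared, between 0.868 in cluster 4 and 0.951 in cluster 2, with every interval below 1. Of all genes at 20 CPM or more, 17.1% were lower in all 5 clusters. Among 10 genes at 5 CPM or more for the glycosaminoglycan chains that serglycin carries, 8 had log2 ratios below 0 and 2 were lower by at least 20%. Of all 9184 genes at 5 CPM or more in a library, 50.3% were below 0 and 4.29% were lower by that margin. The 2 genes were B3galt6 at 5.90 CPM in the combination library and 8.72 CPM in the IL-15SA library, and Xylt2 at 5.61 CPM in the combination library and 7.29 CPM in the IL-15SA library. Next were B3gat3, a glucuronyltransferase of the linker, at 35.3 CPM in the combination library and 41.7 CPM in the IL-15SA library, and the chondroitin polymerizing factor gene Chpf, at 19.02 CPM in the combination library and 22.2 CPM in the IL-15SA library.

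Of the 3 cathepsins, Ctsw differed between the libraries and the other two had intervals that reached close to or across 1. Ctsw (chromosome 19, 5465043 to 5468507, minus strand) encodes cathepsin W, a protease of NK cells and cytotoxic T cells. It stood at 1025 CPM in the combination library and 852 CPM in the IL-15SA library, a ratio of 1.20 (1.18 to 1.22). The ratio was above 1 in all 5 clusters, between 1.08 in cluster 4 and 1.22 in cluster 3, with each interval above 1, whereas 13.1% of all genes were higher in all 5. Ctsw ranked 444 of 5420 genes from the highest log2 ratio. After the libraries were matched on depth (UMIs per cell), by equal numbers of cells in each range of UMIs, the ratio was 1.08 (1.06 to 1.10), at 985 CPM in the combination library and 911 CPM in the IL-15SA library.

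Ctsc (chromosome 7, 88278085 to 88310888, plus strand) encodes cathepsin C, the dipeptidyl peptidase that activates granzymes. Its level was 108 CPM in the combination library and 103 CPM in the IL-15SA library, a ratio of 1.06 (1.00 to 1.11). Matched on UMIs per cell the ratio was 0.999 (0.940 to 1.06). Ctsd (chromosome 7, 142375911 to 142388038, minus strand) encodes cathepsin D, an aspartic protease of lysosomes. It had only 155 UMIs in the combination library and 160 in the IL-15SA library, or 5.57 CPM in the combination library and 6.04 CPM in the IL-15SA library, with a ratio of 0.923 (0.735 to 1.16), and it was the only member under 20 CPM. The gene Gm49369 overlaps 6757 bases of Ctsd on the same strand, which covers its 3′ end, so the counted level of Ctsd is uncertain. Ctsc shares 4743 bases with Gm26522 on the opposite strand, and the sources used here do not say whether counting used strand.

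The membrane proteins of the granule were close to equal in both libraries. Nkg7 (chromosome 7, 43437073 to 43438249, plus strand) encodes a small membrane protein of cytotoxic granules that is needed for their exocytosis. Its level was 5236 CPM in the combination library and 5076 CPM in the IL-15SA library, a ratio of 1.03 (1.02 to 1.04). The difference had no steady direction: after matching on UMIs per cell the ratio was 0.973 (0.965 to 0.981). Across clusters it ran between 0.978 (0.964 to 0.993) in cluster 1 and 1.06 (1.02 to 1.10) in cluster 6.

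Lamp1 (chromosome 8, 13159161 to 13175338, plus strand) encodes the lysosomal membrane glycoprotein CD107a, whose arrival at the cell surface is used as the readout of degranulation. It stood at 121 CPM in the combination library and 120 CPM in the IL-15SA library, a ratio of 1.00 (0.956 to 1.05). Lamp2 (chromosome X, 38401357 to 38456454, minus strand), its relative, was at 30.03 CPM in the combination library and 28.2 CPM in the IL-15SA library, a ratio of 1.06 (0.962 to 1.17). In none of the 5 clusters compared did an interval for either gene leave out 1. At the finer clustering given below, Lamp1 ran between 0.931 and 1.30 and Lamp2 between 0.828 and 1.54 over 8 clusters. Each gene had 1 interval above 1 and 0 below there. Both are also genes of the tumour or stroma-like cluster, where Lamp1 was 3.04 times and Lamp2 2.35 times the level in NK clusters, while Srgn, Nkg7, Ctsw, Ctsc, Rab27a and Unc13d were at 0.248 to 0.288 times that level. With that cluster kept, the log2 ratio of Lamp1 was 0.11. Lamp1 overlaps Grtp1 by 3317 bases at its 3′ end on the opposite strand, and Grtp1 was counted at 2.45 CPM in the combination library and 2.83 CPM in the IL-15SA library.

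Among the release genes, Rab27a was lower in the combination library. Over all barcodes Unc13d was slightly lower and Stx11 higher there, neither with a steady direction across clusters. Rab27a (chromosome 9, 73044854 to 73097629, plus strand) encodes the small GTPase that docks granules at the plasma membrane. It had 911 UMIs in the combination library and 1098 in the IL-15SA library. That is 32.8 CPM in the combination library and 41.5 CPM in the IL-15SA library, which is 1.27-fold lower (1.16 to 1.38), and only 3.63% of all genes had a lower log2 ratio. It was lower in each of the 5 clusters, with ratios between 0.705 in cluster 6 and 0.894 in cluster 3, and the interval lay below 1 in 3 of them. Matched on UMIs per cell it was at 33.7 CPM in the combination library and 40.5 CPM in the IL-15SA library, a ratio of 0.832 (0.751 to 0.922), within 20% of equal. It was lower in all 13 alternatives and by at least 20% in 8 of them.

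Unc13d (chromosome 11, 116062095 to 116077961, minus strand) encodes Munc13-4, the priming factor that Rab27a binds. Its level was 45.1 CPM in the combination library and 49.7 CPM in the IL-15SA library, a ratio of 0.906 (0.838 to 0.980). By cluster the ratio ran between 0.836 (0.728 to 0.960) in cluster 2 and 1.26 (0.822 to 1.98) in cluster 6. It was above 1 in 2 of the 5 clusters, with 1 interval below 1 and 0 above. Stx11 (chromosome 10, 12938209 to 12964298, minus strand) encodes syntaxin 11, the membrane SNARE of granule fusion. It was at 24.3 CPM in the combination library and 20.9 CPM in the IL-15SA library, a ratio of 1.16 (1.04 to 1.30). Matched on UMIs per cell the ratio was 1.12 (0.978 to 1.28). By cluster the ratio was 1.48 (1.17 to 1.87) in cluster 3, on 153 UMIs in the combination library and 150 in the IL-15SA library. In cluster 4 it was 0.708 (0.511 to 0.982), on 82 UMIs in the combination library and 75 in the IL-15SA library. In the finer clusters given next, no Stx11 interval lay on one side of 1. Stxbp2, which encodes the Munc18-2 partner of syntaxin 11, had 47.3 CPM in the combination library and 45.5 CPM in the IL-15SA library.

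Finer clustering, at resolution 1.0, was read with 1 finer cluster left out, all 1306 barcodes of which lay in the tumour or stroma-like cluster. It gave 9 more clusters with at least 100 Ncr1-positive barcodes in each library. Of these, 1 had 3 raised tumour or stroma markers and shared 598 of its 1015 barcodes with the tumour or stroma-like cluster. In the other 8, Ctsw was higher in the combination library in every cluster, with ratios between 1.02 and 1.30 and 6 intervals above 1, as 6.18% of all genes were higher in all 8. Srgn (0.876 to 0.950, with 7 intervals below 1) and Rab27a (0.607 to 0.951, with 2 intervals below 1) were lower in all 8, as 6.94% of all genes were. Stx11 ran between 0.745 and 1.59 with 0 intervals above 1 and 0 below, and the finer cluster led by Gzmf had 1.07 (0.736 to 1.54).

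**Figure D2:**
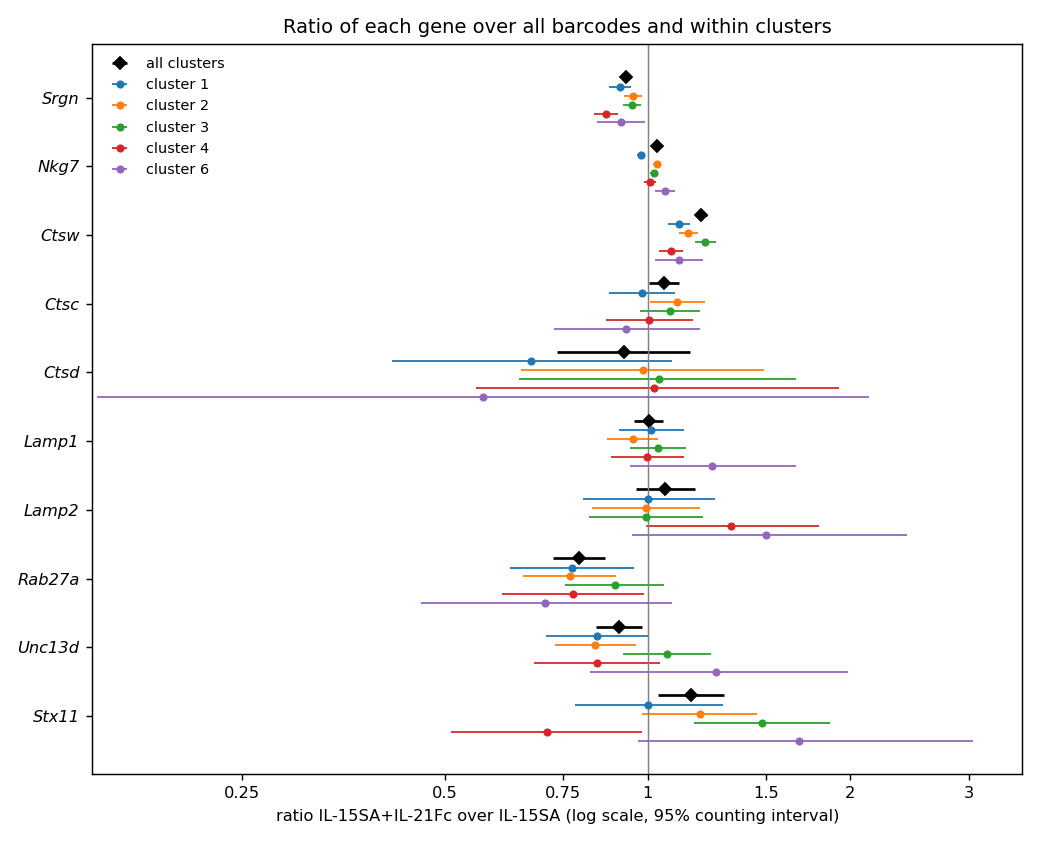
Ratio, combination over IL-15SA, for each gene, on a log scale, over all Ncr1-positive barcodes (diamonds) and within 5 clusters (circles), with 95% counting intervals. Ctsw lies right of 1 and Srgn and Rab27a lie left of 1 in all 5 clusters, while Stx11 lies on both sides, between 0.708 and 1.68.

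Promoter windows were read for the lysosomal membrane pair and for the member with the largest relative difference, to show what sequence they carry beside these levels. They are the 250 bases before the annotated start in RefSeq, build GRCm38.p6, in which 8 of the 10 genes were found. Capitals mark exact matches on either strand to CACGTG (an E-box, the core of the element that TFEB binds at lysosomal genes), GGTGTGA (a T-box site) or AACCACA (a RUNX site). The windows are Lamp1 at chr8:13158911-13159160 (plus strand), Lamp2 at chrX:38456461-38456710 (minus strand) and Rab27a at chr9:73044560-73044809 (plus strand), the upstream of 2 Rab27a windows.
Lamp1: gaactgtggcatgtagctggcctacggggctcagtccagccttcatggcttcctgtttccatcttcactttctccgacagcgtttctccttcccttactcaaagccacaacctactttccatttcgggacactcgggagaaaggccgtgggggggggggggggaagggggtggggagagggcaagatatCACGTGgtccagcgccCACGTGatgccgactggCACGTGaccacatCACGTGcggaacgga
Lamp2: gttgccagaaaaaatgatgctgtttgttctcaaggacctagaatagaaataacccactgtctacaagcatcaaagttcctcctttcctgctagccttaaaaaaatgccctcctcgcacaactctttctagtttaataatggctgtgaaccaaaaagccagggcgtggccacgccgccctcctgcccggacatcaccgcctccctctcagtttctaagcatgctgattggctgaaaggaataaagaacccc
Rab27a: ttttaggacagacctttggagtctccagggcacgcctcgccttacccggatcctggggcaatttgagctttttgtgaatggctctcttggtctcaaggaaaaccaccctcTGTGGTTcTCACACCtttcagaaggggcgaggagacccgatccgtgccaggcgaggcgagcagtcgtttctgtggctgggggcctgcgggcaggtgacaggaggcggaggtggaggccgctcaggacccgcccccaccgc
Lamp1 held 4 CACGTG, which began 61, 45, 28 and 15 bases before the start, and none of the 3 motifs was found in the Lamp2 window. Rab27a held 1 AACCACA, as its reverse complement, 140 bases before the start, and 1 GGTGTGA, also reversed, 132 bases before it. Over the 10 windows of the 8 genes, the other Rab27a window had 1 CACGTG, the Ctsd window had 2, the Ctsc and Nkg7 windows had 1 GGTGTGA each, and 1 of the 2 Srgn windows had 1 AACCACA. Of 32817 windows of the same length, 6.02% held CACGTG, 7 windows (0.0213%) held at least 4, 3.33% held GGTGTGA and 4.39% held AACCACA. A match is a description of letters and not a bound site.

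Within each library Srgn, Nkg7 and Ctsw varied less between NK states than Gzma, Gzmb and Prf1 did, and in another order. Clusters are given by number and leading genes: cluster 1 by Ccl5, Cma1 and S1pr5, cluster 2 by the cell cycle genes Nusap1, Esco2 and Rrm2, cluster 3 by Gzmf, Gzmg and Gzmd, cluster 4 by Cd74, Cxcr6 and Il7r, and cluster 6 by the interferon genes Ifit2, Slfn5 and Mx1. None of the 10 members was among the genes used to cluster. Gzma, Gzmb and Prf1 were not held out of that choice, so their spans and those of the members are not compared on equal terms. From the lowest to the highest cluster, Srgn spanned 1.27-fold in the combination library and 1.37-fold in the IL-15SA library. Nkg7 spanned 1.39-fold in the combination library and 1.46-fold in the IL-15SA library, and Ctsw 1.66-fold in the combination library and 1.76-fold in the IL-15SA library. Gzma, which encodes granzyme A, spanned 3.6-fold in the combination library and 3.21-fold in the IL-15SA library, Prf1 2.94-fold in the combination library and 2.70-fold in the IL-15SA library, and Gzmb 2.32-fold in the combination library and 2.09-fold in the IL-15SA library. The other 7 members, on fewer UMIs, spanned between 1.16-fold (Ctsc) and 2.02-fold (Stx11) in the combination library and between 1.33-fold (Rab27a) and 1.58-fold (Lamp1) in the IL-15SA library.

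Ctsw was highest in cluster 4, where Gzma, Gzmb and Prf1 were lowest. There it reached 1388 CPM in the combination library and 1280 CPM in the IL-15SA library, and in cycling cluster 2 it had its lowest levels, 838 CPM in the combination library and 729 CPM in the IL-15SA library. Relative to cluster 1, cluster 4 held 1.32 times (1.27 to 1.36) the Ctsw of the combination library and 1.35 times (1.29 to 1.41) that of the IL-15SA library. In the combination library the same comparison of cluster 4 with cluster 1 gave 0.314 for Gzma, 0.408 for Prf1, 0.726 for Nkg7, 1.14 for Srgn and 1.19 for Lamp1. In the IL-15SA library it gave 0.328 for Gzma, 0.424 for Prf1, 0.704 for Nkg7, 1.20 for Srgn and 1.20 for Lamp1. The summed granzymes C to G were not lowest in cluster 4: they stood at 967 CPM there in the combination library and 1367 CPM in the IL-15SA library, and in cluster 1 at 403 CPM in the combination library and 533 CPM in the IL-15SA library. The order of clusters for Ctsw and for Nkg7 was identical in both libraries. Nkg7 was highest in cluster 1, at 6197 CPM in the combination library and 6335 CPM in the IL-15SA library, and lowest in cluster 2, at 4461 CPM in the combination library and 4325 CPM in the IL-15SA library. Clusters differ in depth as well: median UMIs per cell in cluster 2 were 3843 in the combination library and 4524 in the IL-15SA library, and in cluster 4 they were 2048.5 in the combination library and 2693.5 in the IL-15SA library. The part of depth in these differences between clusters was not tested.

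**Figure D3:**
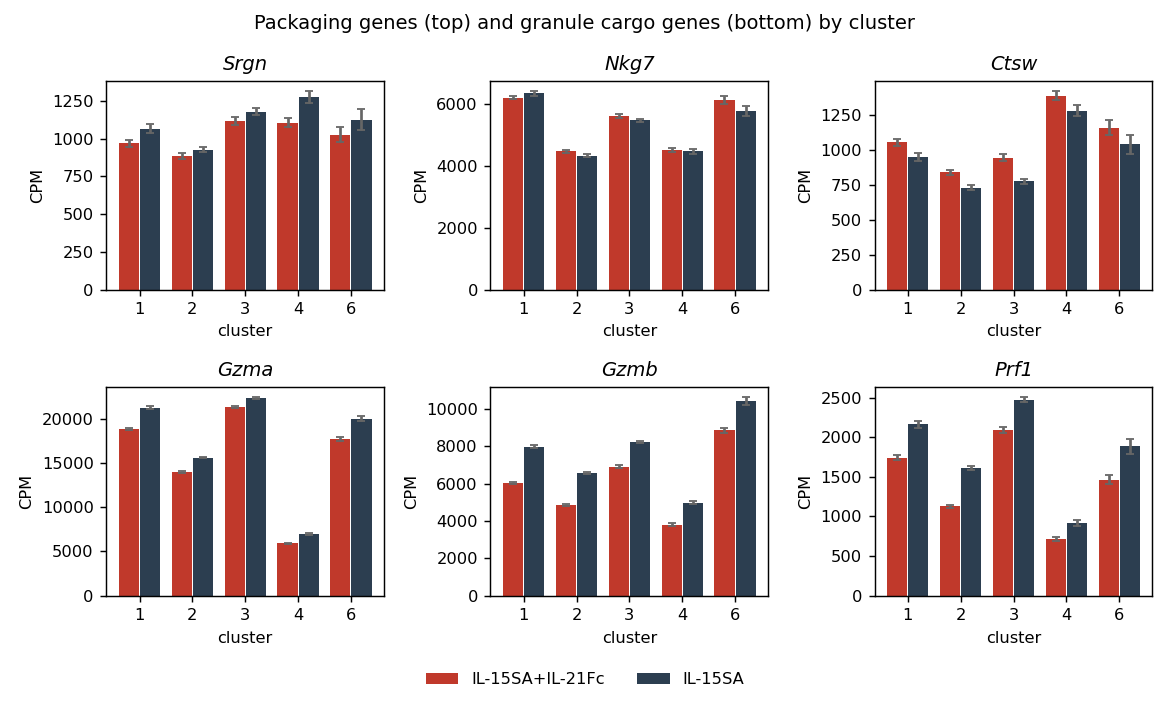
Levels of Srgn, Nkg7 and Ctsw (top) and of the cargo genes Gzma, Gzmb and Prf1 (bottom) in CPM by cluster, as bars from 0 with exact 95% Poisson intervals, the combination library left of the IL-15SA library. Cluster 4 has the highest Ctsw, at 1388 CPM in the combination library and 1280 CPM in the IL-15SA library, and the lowest Gzma, Gzmb and Prf1 in both libraries.

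Per UMI of cargo, Srgn, Nkg7 and Ctsw were higher in the combination library, where the cargo itself was lower. Gzma, Gzmb and Prf1 together made up 22685 CPM in the combination library and 26987 CPM in the IL-15SA library, so a gene at equal CPM in both libraries has a ratio of 1.19 per cargo UMI. Set against 1.19, each ratio below restates the CPM ratio given above and is not a separate result. On that scale Nkg7 and Ctsw were higher and Srgn was lower, Nkg7 by little and not after matching on UMIs per cell. For every 100 of these cargo UMIs there were 4.41 Srgn UMIs in the combination library and 3.99 in the IL-15SA library, a ratio of 1.11 (1.09 to 1.12). For Nkg7 there were 23.1 in the combination library and 18.8 in the IL-15SA library, a ratio of 1.23 (1.22 to 1.24). For Ctsw there were 4.52 in the combination library and 3.16 in the IL-15SA library, a ratio of 1.43 (1.41 to 1.46). For Rab27a there were 0.144 in the combination library and 0.154 in the IL-15SA library, a ratio of 0.940 (0.860 to 1.03). That was the lowest ratio of the members, with its interval below 1.19. The other ratios were 1.38 for Stx11, 1.26 for Lamp2, 1.26 for Ctsc, 1.19 for Lamp1, 1.10 for Ctsd and 1.08 for Unc13d. The ratio for Srgn was above 1 in all 5 clusters, between 1.03 (0.999 to 1.06) in cluster 3, where a gene at equal CPM has 1.09, and 1.13 (1.10 to 1.17) in cluster 2, where it has 1.19, and 1.05 over cells matched on UMIs per cell.

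Nkg7 was higher in cells with more cargo, both over all cells and within cluster 1, while the values of Srgn and Ctsw depended on which cells were taken. Each cell was thinned to 1000 UMIs and the cells of each library were put in 4 quartiles by their UMIs of Gzma, Gzmb and Prf1, and levels were taken over UMIs outside granzyme and perforin genes. Nkg7 was at 6861 CPM in the highest and 4124 CPM in the lowest quartile of the combination library, a ratio of 1.66 (1.62 to 1.71), and the ratio in the IL-15SA library was 1.68 (1.63 to 1.73). It was higher in each quartile than in the one below. Within cluster 1 alone the Nkg7 ratio was 1.46 in the combination library and 1.49 in the IL-15SA library. For Srgn the ratio was 1.02 (0.968 to 1.08) in the combination library and 1.09 (1.03 to 1.16) in the IL-15SA library, and within cluster 1 it was 0.999 (0.906 to 1.10) in the combination library and 1.28 (1.13 to 1.45) in the IL-15SA library. For Ctsw it was 0.771 (0.731 to 0.813) in the combination library and 0.804 (0.752 to 0.860) in the IL-15SA library. Lamp1 had 0.692 (0.584 to 0.820) in the combination library and 0.873 (0.714 to 1.07) in the IL-15SA library. Cluster 4 made up 55.5% of the lowest quartile in the combination library and 41.7% in the IL-15SA library. Within cluster 1 the Ctsw ratio was 0.983 (0.896 to 1.08) in the combination library and 1.03 (0.907 to 1.18) in the IL-15SA library. The Lamp1 ratio there was 0.624 (0.459 to 0.843) in the combination library and 0.815 (0.549 to 1.21) in the IL-15SA library.

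**Figure D4:**
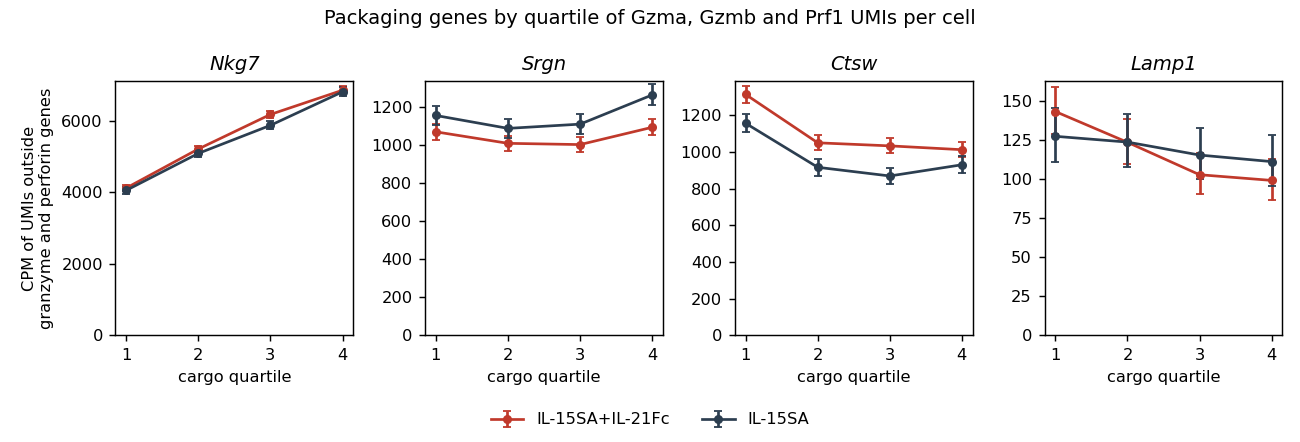
Level of Nkg7, Srgn, Ctsw and Lamp1, in CPM of the UMIs outside granzyme and perforin genes, by quartile of cargo UMIs per cell (1 lowest, 4 highest), with exact 95% Poisson intervals for each library. Nkg7 climbs in each quartile of both libraries, to 6861 CPM in the combination library and 6816 CPM in the IL-15SA library, while Ctsw is highest in quartile 1, at 1314 CPM in the combination library and 1156 CPM in the IL-15SA library.

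At equal depth the cells of both libraries held about as many of the 10 transcripts. With 1000 UMIs per cell, and no cell left out, a mean of 2.52 members per cell was detected in the combination library and 2.53 in the IL-15SA library, with a median of 3 in both. A Ctsw UMI was found in 61.3% of cells (60.3% to 62.2%) in the combination library and 56.8% (55.7% to 58.0%) in the IL-15SA library, and an Srgn UMI in 59.2% (58.2% to 60.2%) in the combination library and 63.7% (62.6% to 64.8%) in the IL-15SA library. These shares lay on the same side as the CPM. For Rab27a they were 3.10% (2.77% to 3.46%) in the combination library and 4.10% (3.65% to 4.59%) in the IL-15SA library. Before thinning the Ctsw shares were 86.3% in the combination library and 87.8% in the IL-15SA library, the Srgn shares 85.3% in the combination library and 90.8% in the IL-15SA library, and the Rab27a shares 8.0% in the combination library and 13.01% in the IL-15SA library.

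NK transcripts were also found in barcodes of the tumour or stroma-like cluster without an Ncr1 UMI, of which the combination library held 609 with a median of 1890 UMIs and the IL-15SA library 172 with a median of 1690 UMIs. Thinned to 1000 UMIs, a Ctsw UMI was in 21.02% of these barcodes in the combination library and 23.8% in the IL-15SA library, and an Srgn UMI in 20.2% in the combination library and 26.7% in the IL-15SA library. A Rab27a UMI was in 0.821% of them in the combination library and in 0 of 172 in the IL-15SA library, which at a limit of 3 counts allows a share of up to 1.74%. The shares in NK barcodes above were well over these. An Nkg7 UMI was in 97.9% of NK barcodes in the combination library and 97.6% in the IL-15SA library, and in the tumour barcodes it was in 55.7% in the combination library and 63.4% in the IL-15SA library. Lamp1 and Lamp2 are made by most cell types, so these barcodes give no background for them: a Lamp1 UMI was in 28.4% of tumour barcodes in the combination library and 26.7% in the IL-15SA library, and in 10.3% of NK barcodes in the combination library and 10.6% in the IL-15SA library.

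Depth per cell differed between the libraries, so 6177 cells of each were matched on UMIs per cell, with medians of 2920 in the combination library and 2914 in the IL-15SA library. Matching did not hold the clusters fixed, and clusters differ in depth, so the mix of NK states may change with it. The parts of depth and of this mix in the shifts below were not tested. After matching, Ctsw stayed above 1 and Srgn, Rab27a and Unc13d stayed below 1 with their intervals, at 1.08, 0.888, 0.832 and 0.894. Stx11 was at 1.12 (0.978 to 1.28). The cargo ratios hardly moved, at 0.879 for Gzma, 0.776 for Gzmb and 0.772 for Prf1.

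**Figure D5:**
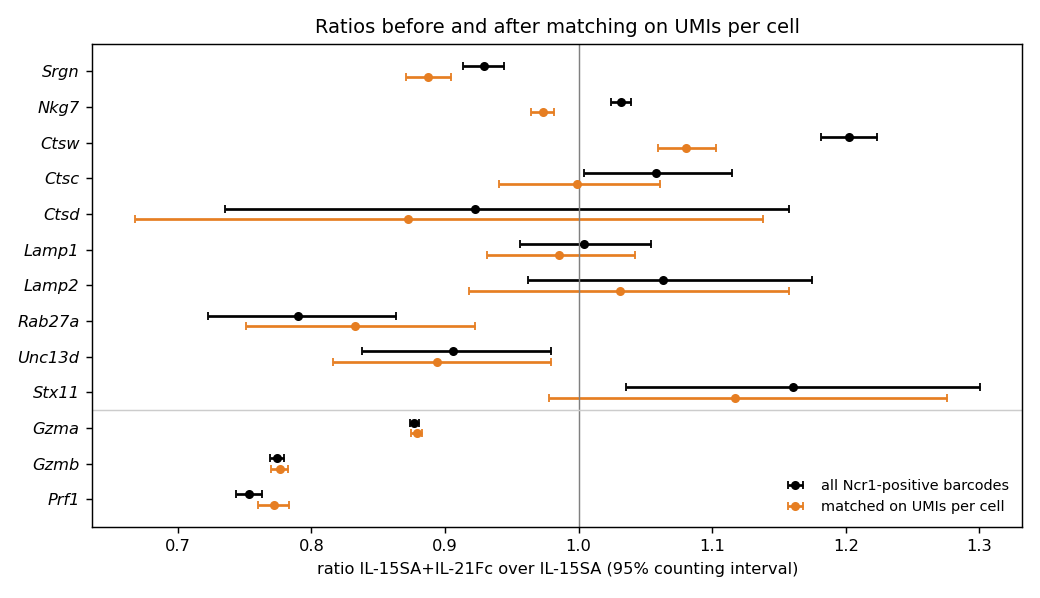
Ratio, combination over IL-15SA, for the 10 genes (above the line) and 3 cargo genes (below it), over all Ncr1-positive barcodes (black) and after matching on UMIs per cell (orange), with 95% counting intervals. Ctsw moves from 1.20 to 1.08 and Nkg7 from 1.03 to 0.973 on matching, while Gzma, Gzmb and Prf1 stay between 0.753 and 0.879.

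Other genes of the granule pathway were read from lists, counting those at 5 CPM or more in a library. Of all genes at that level 8.74% were higher by at least 25%, and 4.29% were lower by at least 20%, as given above. Of 15 measured genes of the cargo list, which also holds death ligands and protease inhibitors, 8 were lower by at least 20% in the combination library. Granzymes C to G were among those 8. In the same list 1 gene was higher by at least 25%, 4 had log2 ratios above 0, and the median log2 ratio was -0.37. The lowest ratios were those of Gzmg, at 8.81 CPM in the combination library and 26.1 CPM in the IL-15SA library, and of Gzmd, at 95.05 CPM in the combination library and 224.9 CPM in the IL-15SA library, followed by Gzme and Gzmf. These granzymes are near-identical neighbours that can share reads. They lead cluster 3, which held 18.2% of the barcodes compared in the combination library and 29.4% in the IL-15SA library. Summed over granzymes C to G the ratio was 0.547 (0.538 to 0.556) over all barcodes, 0.703 within cluster 3 and 0.756 within cluster 1. Of 43 measured genes for transport, docking and fusion, 2 were higher by at least 25% and 0 were lower by at least 20%, with a median of 0.02. They were Sytl1, which encodes a synaptotagmin-like effector of Rab27, at 11.8 CPM in the combination library and 7.55 CPM in the IL-15SA library, and Stxbp3, a syntaxin-binding protein, at 21.1 CPM in the combination library and 16.4 CPM in the IL-15SA library. Next in size were Orai1, the calcium channel of store-operated entry, at 73.2 CPM in the combination library and 59.9 CPM in the IL-15SA library, and Myo5a, a myosin motor, at 5.21 CPM in the combination library and 6.53 CPM in the IL-15SA library.

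Of 37 measured lysosomal genes, 7 were higher by at least 25% and 1 was lower by at least 20% in the combination library, with a median log2 ratio of 0.12. Cd63, a tetraspanin of lysosomes and granules, was at 56.6 CPM in the combination library and 27.2 CPM in the IL-15SA library, and Ctsl, which encodes cathepsin L, was at 41.4 CPM in the combination library and 24.2 CPM in the IL-15SA library. Both were abundant in the tumour or stroma-like cluster, at 24.7 times (Cd63) and 26.1 times (Ctsl) the level in NK clusters, and tumour markers were also higher in the combination library, as given above. The part of tumour transcripts in these differences was not tested. Grn, which encodes progranulin, was at 20.2 CPM in the combination library and 15.1 CPM in the IL-15SA library, and its level in that cluster was 5.49 times that in NK clusters. Without the 5 genes over 5 times higher in that cluster, a setting chosen after the values were seen, 4 of 32 genes were higher and 1 was lower by these margins. Tfeb, the transcription factor of lysosomal genes, was among the 4, at 15.4 CPM in the combination library and 10.99 CPM in the IL-15SA library, and its level in the tumour or stroma-like cluster was 0.924 times that in NK clusters.

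Over the 10 points of 5 clusters and 2 libraries, which share library, depth and composition, members did not form 1 common pattern. On log2 CPM, Nkg7 had a Pearson r of 0.892 with Ctsc and 0.707 with Gzma, while Ctsw had -0.655 with Gzma and 0.928 with Ncr1, the gene used to select the barcodes. For each member the genes with the highest r were also picked from all genes at 20 CPM or more. With so many genes and only 10 points, a high r can arise from the search alone, and no r was tested. The genes most like each member by this measure were Fli1 (0.963), Eif3e and Vsir for Srgn, Fcer1g (0.919), Tigit and Arl5a for Nkg7, Gabarapl2 (0.979), Tecpr1 and Wls for Ctsw, and Snd1 (0.986), Ier3 and Eif5b for Rab27a. For Lamp1 they were Arhgap18 (0.982), Itgb1 and Ankrd12, for Lamp2 Pex2 (0.919), Lyn and Irf2, and for Ctsc Klre1 (0.909), Aoah and Mctp2. For Unc13d they were Elp2 (0.944), Ubxn1 and Hibadh, for Stx11 Rsbn1l (0.936) and Ostm1, and for Ctsd Diaph1 (0.916), Ttc14 and Usp8. In cluster 6 Ctsd rested on 6 UMIs in each library.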

How the data were processed

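Per the labels' protocols, 1 GEXSCOPE microwell library of single-cell RNA was made per group and sequenced as 150 bp paired-end reads. The deposited values are raw UMI counts per gene and barcode, not normalized, already reduced to called barcodes. The submitters' processing notes name the build mm10 and the tools Scanpy, Seurat version 4, featureCounts and cutadapt, with no roles; for the aligner, annotation and cell calling, the sources used here name nothing. The cell barcode names and the gene IDs and symbols were used as deposited by the authors. Of 53715 gene IDs, 53620 were in GENCODE M21. Groups were read off the sample titles, from which the series title differs in naming IL-21 for the single treatment.

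The 10 genes and the other gene lists were chosen with earlier results of these data known. A barcode was kept if it had 200 genes or more and a mitochondrial share of UMIs no higher than 20%. The automatic Scrublet threshold marked 0 barcodes of the combination library and 3 of the IL-15SA library, too few to have worked, so the 5% with the highest doublet scores were removed, 622 barcodes of the combination library and 419 of the IL-15SA library. Counts per cell were scaled to a total of 10000, and Leiden clusters (resolution 0.5) were made from 15 neighbours in 30 principal components of 2000 variable genes, leaving the 10 members out. Cluster 5, with 1336 barcodes in the combination library and 570 in the IL-15SA library, held tumour or stroma markers and was set aside. Cluster 7 had under 100 Ncr1-positive barcodes in a library and enters the totals only.

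UMIs were summed per library, giving 27806841 in the combination library and 26480302 in the IL-15SA library. CPM intervals are exact Poisson, ratio intervals exact conditional binomial and share intervals exact binomial (Clopper-Pearson), at 95%; the limit given for a count of 0 is 3 counts of the total. Log2 ratios, and the counts of genes higher by 25% or lower by 20%, have 1 CPM added. The named genes are all members, Ncr1, from each list the 4 genes furthest from a log2 ratio of 0, and the 3 genes most like each member, of which 1 is not reported here; Prf1, Gzma, Gzmb, Stxbp2, Gm49369, Gm26522 and Grtp1 are named beside them. The interval code was tested on simulated data. Alternatives covered barcode sets, doublets, depth matching, scaling, weighting, clustering, filters and thinning. Python 3.11.15, scanpy 1.11.5, numpy 2.4.6, scipy 1.17.1, leidenalg 0.10.2 and scikit-learn 1.9.0 were used.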

Additional observations from a re-analysis of the deposited data

Results flagged for a closer look

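The Stx11 ratio, combination over IL-15SA, was 1.48 in cluster 3 and 0.708 in cluster 4, with counting intervals on opposite sides of 1, but at the finer clustering all 9 Stx11 intervals included 1. The Nkg7 ratio was 1.06 in cluster 6 and 0.978 in cluster 1, also with intervals on opposite sides of 1. Neither difference between clusters was tested, since each cluster has 1 library per group. NK barcodes without an Ncr1 UMI, which the comparisons leave out, were 698 in the combination library and 402 in the IL-15SA library, and they held Nkg7 at 5136.4 CPM (5016.5 to 5258.4) in the combination library and 5569.8 CPM (5413.4 to 5729.6) in the IL-15SA library.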

How the results depend on the processing

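No paired analysis was possible because the groups have 1 library each and share no replicate number; for the same reason no replicate could be left out. Over 13 alternatives the median log2 ratio of the 10 genes lay between -0.03 and 0.04, and no member passed 1.5-fold in any of them. Rab27a was lower by at least 20% in 8 alternatives. The number of members past that margin was 0 with NK barcodes taken with or without an Ncr1 UMI, after matching on UMIs per cell, without the cycling cluster, with a median of ratios size factor, and centred on the median of all genes. The last of these, the alternatives of the Srgn to cargo ratio, and the quartiles in cluster 1 were chosen after seeing the data. Nkg7 turned direction, to a log2 ratio of -0.0018 over every deposited barcode with an Ncr1 UMI and -0.039 after matching on UMIs per cell, and Ctsc turned to -0.0020 after matching. Lamp1, close to 0 at the start, kept its sign in only 9 of 13 alternatives, with log2 ratios between -0.021 and 0.126. The unthinned share of cells with a Ctsw UMI was lower in the combination library by 1.59 percentage points (difference -1.59), opposite to the thinned share. The Ctsw ratio between cargo quartiles in the IL-15SA library turned to 1.03 in cluster 1 alone. The Srgn to cargo ratio was 1.05 after matching and up to 1.11 elsewhere. With a filter at 5 CPM and at 50 CPM, 1197 and 260 of all genes were 25% higher or 20% lower, against 538 at 20 CPM, and 251 and 43 passed 1.5-fold, against 103; the number of genes tested changes with the filter. The causes of the other shifts were not tested. Precision is limited by counts for Ctsd, Stx11, Lamp2 and Rab27a, and by 1 library per group for every member.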

Other observations

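At the finer clustering, cluster 4 divided mostly into a part with Ctsw at 1430 CPM in the combination library and 1323 CPM in the IL-15SA library, and a small part with 1150 CPM from 194 Ncr1-positive barcodes in the combination library and 913 CPM from 67 in the IL-15SA library. In NK barcodes without an Ncr1 UMI, Srgn was at 1103 CPM in the combination library and 1178 CPM in the IL-15SA library, Ctsw at 954 CPM in the combination library and 771 CPM in the IL-15SA library, and Rab27a at 30.2 CPM in the combination library and 27.8 CPM in the IL-15SA library. For Rab27a this order was opposite to that in Ncr1-positive barcodes. It came from only 698 barcodes in the combination library and 402 in the IL-15SA library, and no interval is given for it.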
